A study of Homo sapiens with 6 samples.

Results

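The genes followed here are 8 that receive, make, break down or move adenosine: the receptor genes ADORA1, ADORA2A and ADORA2B, the ectoenzyme genes ENTPD1 and NT5E, the enzyme genes ADA and ADK, and the transporter gene SLC29A1. They were picked by symbol, each through the 1 probe set that the platform annotation assigns to it, from 17687 named genes on the array. They were chosen with their levels on the arrays and their treated minus control differences in view, so those values are a description and carry no test. The array values came from 6 Clarion S arrays, with 1 array for each condition of each cell line. PC-9 and HCC827, non-small cell lung cancer lines whose gene for EGFR, the receptor of epidermal growth factor, is mutated, each gave 1 array after 6 hours with 0.01 µM erlotinib, an inhibitor of the EGFR kinase, and 1 control array. H322, a lung cancer line with wild-type EGFR, gave 1 array after 6 hours with EGF, the ligand of that receptor, and 1 control array; the labels give its dose as 100 µg/ml. All are established lines grown as cultures without other cells. Per the labels the medium held TNF-alpha, an inflammatory cytokine, and they do not say if the controls had it too; if the controls lacked it, treatment and cytokine cannot be told apart. The labels do not say whether a line's arrays came from separate cultures grown in parallel.

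Cells release ATP, and ectoenzymes on the cell surface turn it into adenosine: the product of ENTPD1, known as CD39, removes phosphates from ATP and ADP, and that of NT5E, known as CD73, turns AMP into adenosine. Adenosine then acts on G protein-coupled receptors. Those encoded by ADORA2A and ADORA2B raise cyclic AMP in the cell and the one encoded by ADORA1 lowers it, and in tumours adenosine is known for holding back T cells through the product of ADORA2A. The signal ends when SLC29A1, an equilibrative transporter also called ENT1, carries adenosine into cells, where ADK turns it into AMP and ADA into inosine.

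Levels are given as log2(intensity + 1), where the intensity is the deposited signal of a probe set. Background was set by the array's negative control probe sets: their 95th percentile was 6.92 to 7.47 (log2) on the 6 arrays, and 48.8% to 52.4% of the named genes of an array exceeded it. A signal under that level is only a bound, and a fold with 1 such signal is given as "at least". Levels of different genes come from different probes and are not set against each other. All 6 epithelial marker genes (EPCAM, CDH1, KRT7, KRT8, KRT18 and KRT19) lay above the negative controls on every array, at 12.88 to 17.19. Of the lung adenocarcinoma markers NKX2-1 and NAPSA lay above them on both HCC827 arrays and on no other, and SFTPB on none. Of 4 leukocyte, 4 fibroblast and 3 endothelial markers measured, none lay above them on all 6 arrays, and 3, 3 and 1 lay above them on none; ITGAM, COL1A2, CDH5 and VWF did so on some, at up to 8.38.

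Of the 8 genes, 3 exceeded the negative controls on all 6 arrays (ADORA2A, NT5E and ADK) and 1, ENTPD1, on none. By array, 4 of the 8 did so in PC-9 with erlotinib and 5 in its control, 6 in HCC827 with erlotinib and 6 in its control, and 4 in H322 with EGF and 4 in its control. The plot of levels by array shows each gene against this background.

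**Figure D1:**
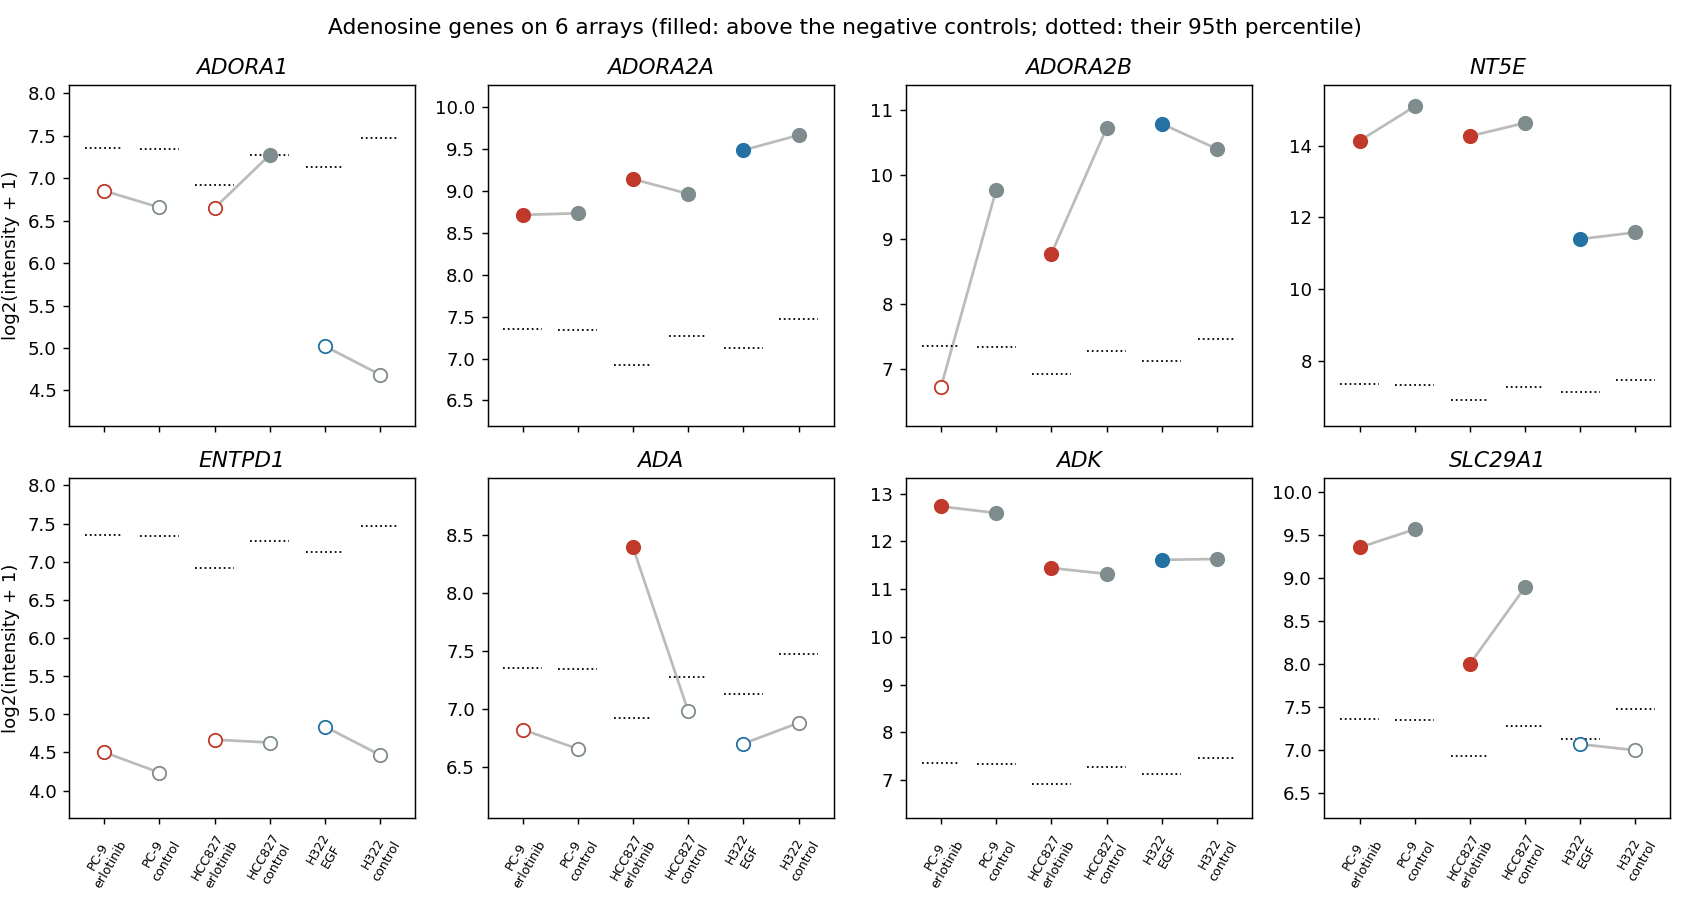
Level of each of the 8 genes on the 6 arrays, as log2(intensity + 1) on the y axis, with treated left of control in each line, 1 point per array and lines joining the arrays of a cell line. Dotted marks give the background level of that array, the negative controls' 95th percentile, and open points lie at or below it; ADORA2B has 6.73 with erlotinib and 9.77 in the control of PC-9, and NT5E is lower on both H322 arrays than on the other 4.

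With erlotinib the low-affinity adenosine receptor gene ADORA2B was lower in both EGFR-mutant lines, more than any other of the 8 genes, and the ectoenzyme gene NT5E was lower by a smaller amount. The other 2 receptor genes were not lower in both lines. ADORA2B was at 6.73 in PC-9 with erlotinib, against 9.77 in the PC-9 control, and at 8.78 in HCC827 with erlotinib, against 10.72 in the HCC827 control. Both erlotinib arrays lay below both controls, and the signal of PC-9 with erlotinib did not exceed the negative controls. The decrease was at least 5.32-fold for PC-9 and 3.83-fold for HCC827. In HCC827 that placed ADORA2B 39th from the lowest difference among 8691 genes above the negative controls on both arrays. In H322 the same gene was at 10.78 with EGF and 10.39 in the control, 1.31-fold higher. That log2 difference of 0.39 was under 0.62, the 95th percentile of the sizes of the treated minus control differences of the 500 genes of nearest level. This percentile stands in for a replicate spread, which 1 array per condition does not give, and it was 0.997 in PC-9 and 1.26 in HCC827.

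The other receptor genes stood differently. ADORA2A, the receptor gene known for its part in T cells, was at 8.72 in PC-9 with erlotinib and 8.73 in its control, at 9.14 in HCC827 with erlotinib and 8.97 in its control, and at 9.49 in H322 with EGF and 9.67 in its control. No treated array differed from its control by more than 0.18 in size. That is under 0.99, the 95th percentile of the sizes of such differences at this level over the 3 lines. The 6 levels of ADORA2A spanned 0.95, but that span takes in differences between lines, for which 0.99 is no gauge. ADORA1 lay above the negative controls on 1 array, the HCC827 control, at 7.2743. The background level of that array was 7.2726, so this signal too is barely told from background. It was at 6.85 in PC-9 with erlotinib and 6.66 in its control, at 6.65 in HCC827 with erlotinib, and at 5.02 in H322 with EGF and 4.69 in its control. Its treated minus control differences of 0.20, -0.63 and 0.33 in PC-9, HCC827 and H322 all include a dim signal.

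Among the enzymes that make adenosine, NT5E was at 14.13 in PC-9 with erlotinib, against 15.09 in its control, and at 14.26 in HCC827 with erlotinib, against 14.63 in its control. In H322 it was at 11.40 with EGF and 11.58 in the control. The PC-9 level was thus 1.94-fold lower with erlotinib and the HCC827 level 1.29-fold lower, a mean log2 difference of -0.66 ± 0.42 (SD, n = 2 lines). The PC-9 difference of -0.96 exceeded the 0.66 of genes of like level and the HCC827 difference of -0.37 did not exceed the 0.93 found there. ENTPD1, which acts on ATP and ADP upstream of NT5E, was between 4.24 and 4.84 on the 6 arrays, so its level is known only as a bound and no fold is given.

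ADORA2B and NT5E were the 2 of the 8 genes whose erlotinib arrays both lay below both controls, where 11.2% of all genes were placed so and 9.85% lay the other way, with 0 of the 8. The rule of choice used these differences, so nothing is read from that count. The 250 bases before the RefSeq start of these genes (build GRCh38.p14) are shown, as these are the 2 without overlap between erlotinib and control arrays, beside those of PNP, a purine gene described below. ADORA2B lies at chr17:15944880-15945129, NT5E at chr6:85449833-85450082 and PNP at chr14:20469156-20469405, all on the plus strand, and capitals mark the motif matches described after them.
ADORA2B: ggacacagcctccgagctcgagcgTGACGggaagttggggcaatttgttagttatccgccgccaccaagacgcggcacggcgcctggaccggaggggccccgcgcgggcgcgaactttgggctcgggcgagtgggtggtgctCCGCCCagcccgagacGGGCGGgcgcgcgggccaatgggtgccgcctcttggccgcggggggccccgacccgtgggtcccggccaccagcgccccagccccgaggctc
NT5E: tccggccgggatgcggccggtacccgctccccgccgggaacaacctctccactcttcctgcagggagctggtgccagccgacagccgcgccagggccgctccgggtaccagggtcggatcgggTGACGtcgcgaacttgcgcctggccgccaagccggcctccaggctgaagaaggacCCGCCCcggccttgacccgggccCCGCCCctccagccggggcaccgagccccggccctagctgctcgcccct
PNP: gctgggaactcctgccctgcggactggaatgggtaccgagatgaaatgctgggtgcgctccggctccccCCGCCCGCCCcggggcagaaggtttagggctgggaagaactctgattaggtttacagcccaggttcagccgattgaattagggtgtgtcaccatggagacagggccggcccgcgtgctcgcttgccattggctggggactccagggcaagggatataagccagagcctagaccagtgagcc
The searched motifs, on both strands, were the AP-1 site TGANTCA, the core of the cyclic AMP response element, TGACG, the hypoxia response core ACGTG, the ETS core CCGGAA, the E-box CACGTG and the GC box GGGCGG. The E-box contains the hypoxia core. ADORA2B and NT5E each held 1 TGACG and 2 GC boxes, and PNP held 2 overlapping GC boxes. The other motifs had no match in these 3 windows. Neither motif is particular to these genes among the 8. TGACG was also in a window of ADK, whose level was steady, and in windows of ENTPD1, which was not above background. GC boxes were also in windows of ADORA1, ADA and ADK. SLC29A1, also lower in both EGFR-mutant lines but with overlapping arrays, has 2 windows in RefSeq, not printed here. Both held GC boxes, and 1 of them also an ETS core and an E-box with its hypoxia core. Of all 35116 promoters of the same length, 21.2% held TGACG, 42.6% a GC box, 14.5% an ETS core and 18.5% the hypoxia core. An E-box was in 6.34% and the AP-1 site in 6.57%, so these matches are a description and not a sign of a factor's binding. RefSeq promoters were matched for 7 of the 8 genes.

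Among the genes that end the adenosine signal, ADA was the one with a difference of 2-fold or more, in HCC827. ADA, a deaminase, was at 8.39 in HCC827 with erlotinib, against 6.98 in its control, which was not above the negative controls, so it was at least 2.17-fold higher. It was at 6.82 in PC-9 with erlotinib and 6.65 in its control, and at 6.70 in H322 with EGF and 6.88 in its control, all 4 not above the negative controls. The single array above background carries the whole of this difference.

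ADK, the adenosine kinase gene, was steady within each line. It was at 12.73 in PC-9 with erlotinib and 12.60 in its control, at 11.44 in HCC827 with erlotinib and 11.32 in its control, and at 11.61 in H322 with EGF and 11.63 in its control. The erlotinib difference was 0.13 ± 0.01 (SD, n = 2 lines), within the 0.93 and 1.06 of genes of like level in PC-9 and HCC827. SLC29A1 was at 9.35 in PC-9 with erlotinib and 9.56 in its control, and at 7.997 in HCC827 with erlotinib and 8.89 in its control, or 1.16-fold and 1.86-fold lower. In H322 it was at 7.06 with EGF and 6.99 in the control, both not above the negative controls. Its HCC827 difference of -0.89 did not exceed the 1.28 of genes of like level.

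Counted at 2-fold, 1 of the 8 genes was lower with erlotinib in PC-9 and none higher, and in HCC827 1 was lower and 1 higher. In H322 0 of the 8 reached 2-fold with EGF in either direction. Of all 17687 genes 2.11% were at least 2-fold lower and 1.35% higher in PC-9, 2.63% and 3.24% in HCC827, and 0.752% changed at least 2-fold either way in H322. The median difference of the 8 genes was 0.06 in PC-9, -0.17 in HCC827 and 0.03 in H322, against 0.01, 0.00 and 0.01 for all genes. The rule used these contrasts, and nothing is read from the counts. The negative control probe sets themselves differed at least 2-fold in 21.1% of cases in PC-9, 24.8% in HCC827 and 23% in H322, so a difference between dim signals carries little information. The plot of treated minus control shows the 3 lines side by side.

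**Figure D2:**
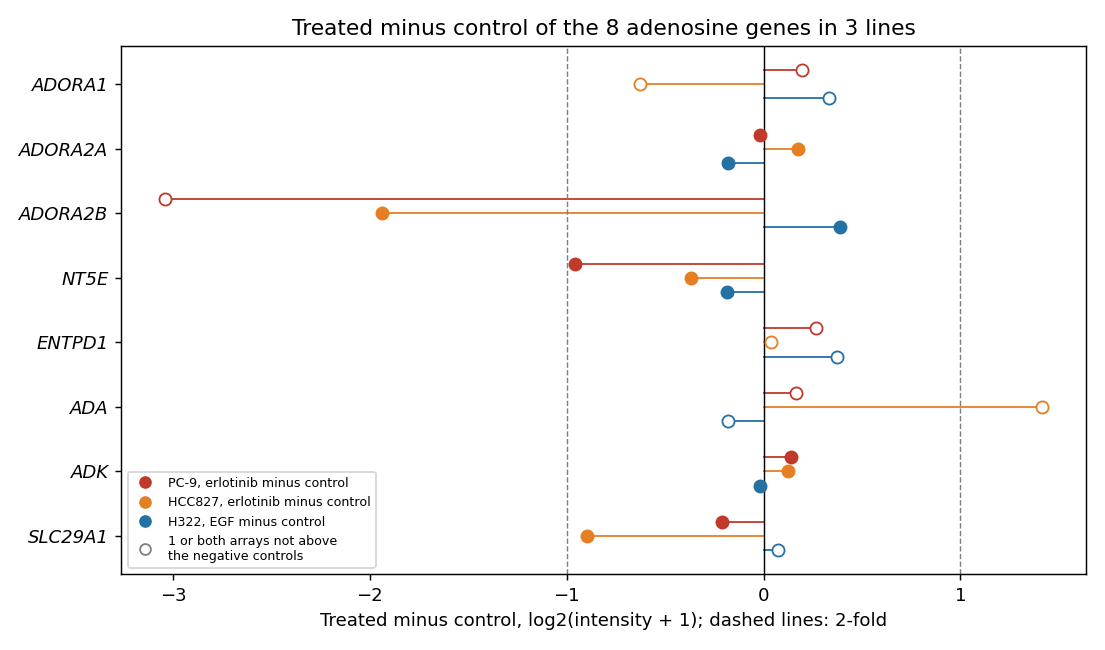
Treated minus control of the 8 genes in log2(intensity + 1) on the x axis, with 1 point per line and gene, red for erlotinib in PC-9, orange for erlotinib in HCC827 and blue for EGF in H322; open points have 1 or both arrays not above the negative controls, and dashed lines mark 2-fold. ADORA2B stands at -3.04 and -1.94 with erlotinib and 0.39 with EGF, while ADK and ADORA2A lie within 0.18 of 0 in all 3 lines.

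The control arrays also differed between the lines, and NT5E differed most among the genes measured in all of them. NT5E was at 15.09 in PC-9 and 14.63 in HCC827 against 11.58 in H322, or 11.4-fold and 8.28-fold higher in the EGFR-mutant lines. Its level in both EGFR-mutant lines with erlotinib stayed above both H322 arrays. SLC29A1 was not above the negative controls in H322, and PC-9 was at least 4.27-fold and HCC827 at least 2.68-fold higher than there. ADK was 1.95-fold higher in PC-9 than in H322 and 2.42-fold higher than in HCC827. ADORA2B control levels lay closer together, at 9.77 in PC-9, 10.72 in HCC827 and 10.39 in H322. Relative to H322, ADORA2A was 1.91-fold lower in PC-9, and in HCC827 it was 1.62-fold lower. The 0.99 given above comes from treated minus control differences, so it is no gauge of differences between lines. By signal alone, 3 of the 8 genes differed at least 2-fold between PC-9 and H322, 3 between HCC827 and H322 and 1 between PC-9 and HCC827, where 28.5%, 27.1% and 27.2% of all genes did so. The third gene in both counts against H322 is ADORA1, for which no fold is given, as its signals there were dim. With 1 control array a line these differences have no replicate check, and line and EGFR genotype cannot be told apart.

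Across the 6 arrays the genes whose levels most resembled ADORA2B were taken by Pearson correlation, among 6729 genes whose signal exceeded background on 3 or more arrays, with a range of at least 1 log2 unit. They were LPCAT4, an acyltransferase of phospholipids (r = 0.98), ERRFI1, an inhibitor of EGFR (r = 0.98), ZNF511, a zinc finger gene (r = 0.98), CARNMT1, a methyltransferase of carnosine (r = 0.98), and EPHA2, a receptor tyrosine kinase (r = 0.97). In all, 19 of the genes had r over 0.95, and the 6 points share lines and treatments, so this is a description. LPCAT4 lay near background and exceeded it on 4 of the 6 arrays. EPHA2 exceeded it on 5, and its signal in PC-9 with erlotinib is only a bound. EPHA2 and ERRFI1 had the size of change closest to that of ADORA2B. EPHA2 was at 6.91 in PC-9 with erlotinib, against 10.36 in its control, at 8.34 in HCC827 with erlotinib, against 10.81 in its control, and at 11.07 in H322 with EGF, against 10.18 in its control. For NT5E 259 genes had r over 0.95. The first 5 were PIGA, GRB10, SLC6A8, PALM2AKAP2 and H3-5, all with r of at least 0.9959.

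**Figure D3:**
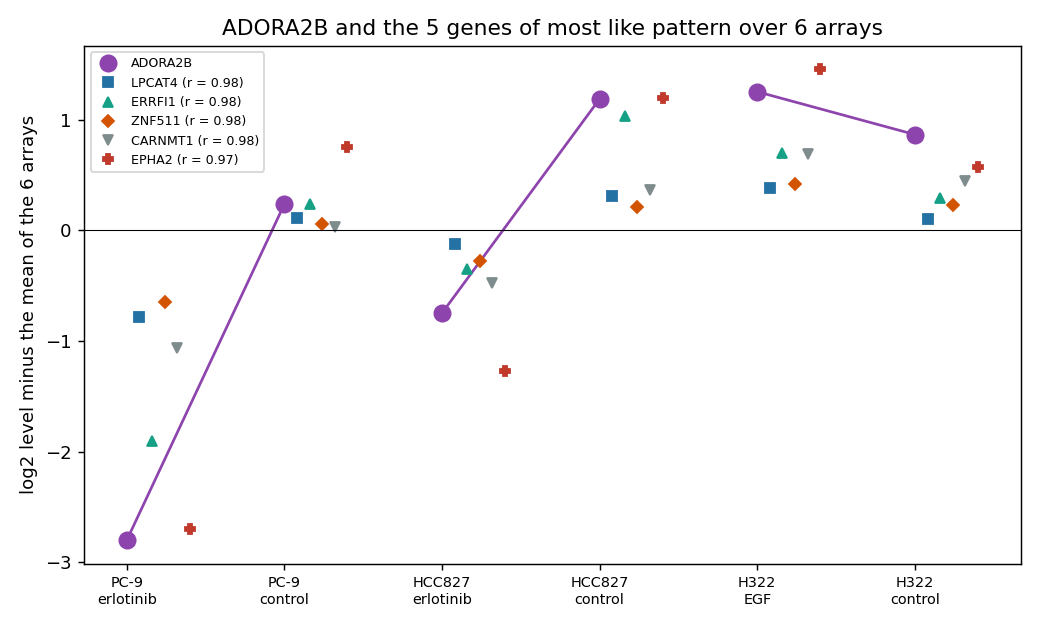
Log2 level of ADORA2B (large purple circles) and of the 5 genes of most like pattern on the 6 arrays, minus each gene's mean over the 6 arrays, on the y axis, with treated left of control and lines joining the ADORA2B arrays of a cell line. All 6 genes are lowest in PC-9 with erlotinib, and ADORA2B and EPHA2 span the widest range.

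Further genes of adenosine, purine and cyclic AMP biology were taken from 6 lists of textbook members, and 77 of 88 listed genes were measured; the other 11, ADORA3 and CREM among them, were not analysed here. Erlotinib was compared with control over the EGFR-mutant lines with limma, with cell line as a block. Of the 77 genes 2 fell, both purine enzymes, 0 rose and 75 did not pass, where 0.916% of all genes fell and 0.565% rose. The 0 depends on the scaling: with median centring, quantile normalization or dim signals raised to the negative controls 3 rose in each fit, SLC28A3, SLC29A3 and ACP3, while 2, 3 and 4 fell. The median erlotinib difference was -0.06 for the 77 and 0.00 for all genes, and that of EGF 0.06 and 0.01. By signal, at least 2-fold lower in both EGFR-mutant lines were the same 2 genes and at least 2-fold higher 1, SLC28A3, whose PC-9 control was dim, where 0.786% and 0.503% of all genes were so. In H322 none of the 77 reached 2-fold with EGF.

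The 2 genes were PNP, the purine nucleoside phosphorylase that splits inosine made by ADA, and AK4, an adenylate kinase of mitochondria. PNP was at 9.60 in PC-9 with erlotinib, against 11.12 in its control, and at 12.85 in HCC827 with erlotinib, against 14.26 in its control. It fell by 1.47 ± 0.15 (limma's moderated SE, n = 2 lines, limma adjusted p = 0.0116), 2.87-fold for PC-9 and 2.66-fold for HCC827. AK4 was at 9.11 in PC-9 with erlotinib, against 10.39 in its control, and at 11.02 in HCC827 with erlotinib, against 12.26 in its control. It fell by 1.26 ± 0.18 (limma adjusted p = 0.025), lower in 2 of 2 lines. In H322 PNP was at 12.43 with EGF and 11.75 in the control and AK4 at 10.84 with EGF and 10.20 in the control, and both differences, 0.67 and 0.64, exceeded the 0.39 and 0.45 of genes of like level. Neither passed in a fit without the trend of spread on signal (limma adjusted p = 0.117 and 0.134) or with no block for the cell line, and over 7 alternative fits the limma adjusted p lay between 1.71e-13 and 0.999991 for PNP and between 2.33e-07 and 0.999991 for AK4. The fit has 1 residual degree of freedom. RefSeq lists pseudogenes of PNP, AK4 and ADORA2B, and whether their probes tell these copies apart is not given, so their signals are uncertain to that extent.

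Nucleoside transporters did not pass as single genes, with 0 of 6 measured past the threshold. Of all genes 0.916% fell and 0.565% rose, so a 0 in a list this short says little. SLC28A3, a concentrative transporter, had at least 1.57-fold higher signal with erlotinib in PC-9, at 7.99 against 6.94 in its control. In HCC827 it was 2.07-fold higher, at 11.24 with erlotinib against 10.19 in its control, and the limma difference was 1.05 ± 0.22 (limma adjusted p = 0.0655, and 0.0115 to 0.999991 over the 7 alternative fits). Of the genes named after their values were seen, SLC29A3, an equilibrative transporter of lysosomes, was at 11.23 in PC-9 with erlotinib against 9.32 in its control, and at 8.01 in HCC827 with erlotinib against 7.07 in its control, which was not above the negative controls, with 1.43 ± 0.28 (limma adjusted p = 0.06, and 1.08e-05 to 0.999991 over the alternatives). SLC29A2, the relative of SLC29A1 known as ENT2, had -0.34 in PC-9, -1.12 in HCC827 and 0.51 with EGF in H322, and did not pass (limma adjusted p = 0.209, and 0.0193 to 0.999991 over the alternatives). Each of SLC28A3 and SLC29A3 passed in 3 of the 7 alternatives and SLC29A2 in 1, with dim signals raised.

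In the list of ATP release and extracellular nucleotide breakdown 0 of 11 measured genes passed, where 0.916% of all genes fell and 0.565% rose. Above the negative controls on no array were 5 of the 11. ACP3, a phosphatase that can release adenosine from AMP, was named after its values were seen. It was at 10.79 in HCC827 with erlotinib against 8.51 in its control and below the negative controls on both PC-9 arrays, with 1.60 ± 0.35 (limma adjusted p = 0.0763, and 0.000608 to 0.999991 over the 7 alternatives, of which 3 passed it). Also named after their values were seen are PANX1, DPP4, GNAS and the GNAI genes, none of which passed. PANX1, a channel that releases ATP, lay between 10.83 and 12.82 on the 6 arrays. DPP4, which holds ADA on the cell surface, was at 12.49 in HCC827 with erlotinib and 12.88 in its control, and on no array of the other lines above the negative controls. That made the HCC827 control at least 42.4-fold brighter than the H322 control for DPP4.

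Of 13 measured receptors for ATP, ADP and UTP 0 passed, where 0.916% of all genes fell and 0.565% rose. Above the negative controls on no array were 9 of the 13. P2RY2, a receptor for ATP and UTP named after its values were seen, was at 8.03 in PC-9 with erlotinib and 8.86 in its control, and at 7.46 in HCC827 with erlotinib and 8.26 in its control. With EGF it was at 8.54, against 7.68 in the H322 control, and it did not pass with erlotinib (limma adjusted p = 0.173). In the list of G proteins, adenylate cyclases and cyclic AMP signalling 0 of 25 measured genes passed. Beside shares of 0.916% and 0.565% over all genes, a 0 in a list this short says little. Above the negative controls on no array were 12 of the 25. GNAS, the stimulatory G protein gene through which the ADORA2A and ADORA2B receptors act, lay between 13.45 and 15.62. The 3 inhibitory alpha subunit genes GNAI1, GNAI2 and GNAI3 exceeded the negative controls on all 6 arrays. None of the 8 measured adenylate cyclase genes did so on any array, with levels of 2.98 to 6.62, and the cyclase gene ADCY6 was not analysed. Which adenylate cyclases these lines use was thus not detectable here.

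Of the 77 genes 29 exceeded the negative controls on all 6 arrays. Among these 8 (27.6%) were lower with erlotinib in both lines and higher with EGF, against 21.3% of the 7405 genes of the whole array measured so, and 5 (17.2%) went the other way in both respects, against 23.8%. By sign alone, ADORA2B had the first of these patterns and NT5E had not, with -0.19 for EGF. Both EGF differences, 0.39 and -0.19, were within the 0.62 and 0.35 of genes of like level, so their signs are not told from 0. ADORA2B was not above the negative controls in PC-9 with erlotinib, so it would not enter these shares.

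**Figure D4:**
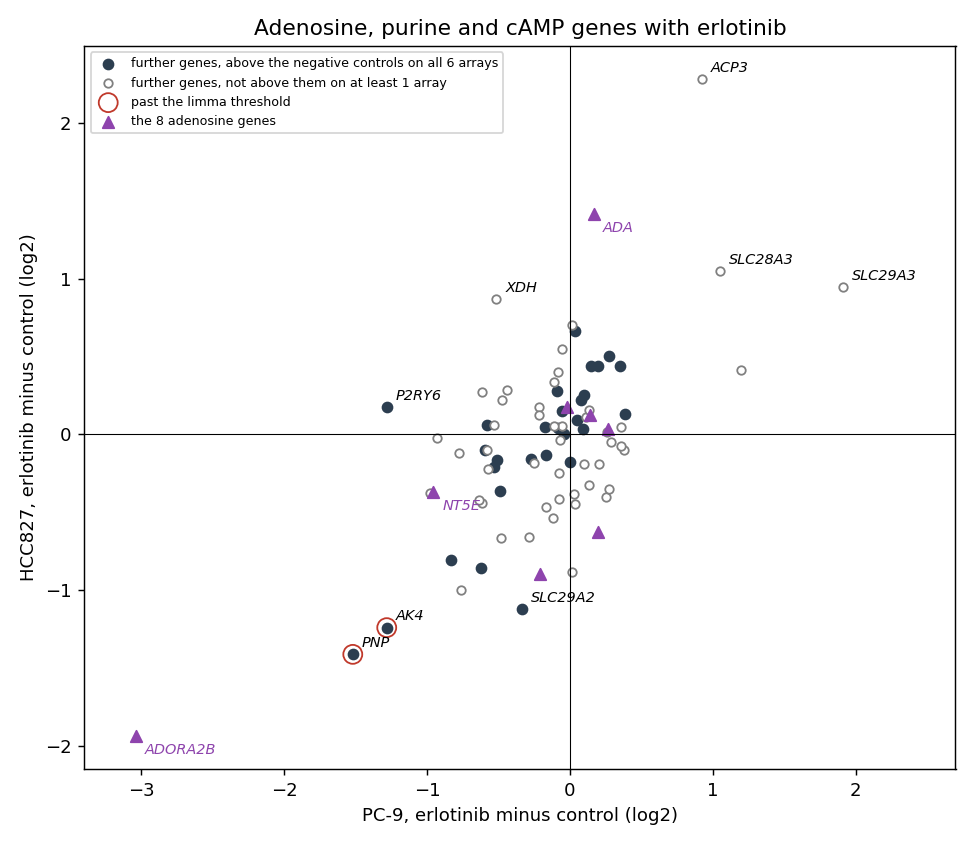
Erlotinib minus control in PC-9 (x axis) and in HCC827 (y axis), both in log2, for 77 further genes (circles, filled where above the negative controls on all 6 arrays) and the 8 adenosine genes (triangles); red rings mark the 2 genes past the limma threshold of 0.05, PNP and AK4. ADORA2B lies lowest on both axes, at -3.04 and -1.94, and SLC28A3, SLC29A3 and ACP3 lie in the upper right without passing.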

How the data were processed

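Per the labels' protocols, RNA was taken up in Trizol, and biotin-marked cRNA from it was put on Clarion S arrays. What the authors deposited is 1 intensity per probe set and array, on a linear scale (3.64 to 295568, array medians 148 to 157). Per the submitters' processing notes, Affymetrix Expression Console made them; version, background correction, summarisation and scaling are not given in the sources used. The near-equal medians mean that a change shared by most genes would not show.

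From these, log2(intensity + 1) was computed for 24351 probe sets. The platform annotation gave 17709 of them 1 gene symbol, 0 several and 6642 none; all 17709 matched RefSeq by gene identifier. The brightest probe set per symbol left 17687 genes. Erlotinib was compared with control on 4 arrays with limma 3.58.1 in R 4.3.3 (lmFit, eBayes with the spread following the mean signal, a block for cell line, two-sided, Benjamini-Hochberg adjustment across all genes, threshold 0.05), which passed 262 genes. The lines pair the arrays: the treated and control array of a line correlated across genes at 0.991 and 0.988, the 2 controls at 0.907. The spread comes mostly from other genes (1 residual and 6.58 prior degrees of freedom), so p-values say little about how alike the lines responded, and precision is limited by the number of arrays. The fit was tested on simulated data with known changes larger than those of PNP and AK4. It recovered these large changes, but it also passed more unchanged genes than the threshold allows. Recovery of changes of the size of PNP and AK4 was not tested. H322 and single lines have no test. The members and gene lists were chosen with earlier results of these data known. Named were the 8 genes, further genes called by limma or changed 2-fold in both EGFR-mutant lines or with EGF, and the 5 genes of most like pattern to ADORA2B and NT5E; all other further genes in the text were named after their values were seen. Alternatives changed the offset to 16, the scaling (median centring, quantile), the treatment of dim signals, the filter, the trend, the block, the lines included, the handling of several probe sets and the background percentile.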

Additional observations from a re-analysis of the deposited data

Results flagged for a closer look

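P2RY6, a receptor for UDP and named after its values were seen, had erlotinib differences of opposite sign in the EGFR-mutant lines. It was at 11.84 in PC-9 with erlotinib, against 13.12 in its control, and at 7.60 in HCC827 with erlotinib, against 7.42 in its control. Background on the HCC827 arrays was 6.92 with erlotinib and 7.27 in the control, close to these signals. A fall of the PC-9 size could thus not be measured in HCC827. The differences of -1.28 and 0.18 run in opposite directions. The HCC827 one is far under 1.25, the 95th percentile of the sizes of HCC827 differences of genes of like level. Its sign is thus not told from 0. Like level means a like mean over the 6 arrays, and P2RY6 was dimmer in HCC827 than its own mean. In PC-9 that percentile was 1.01, and the PC-9 difference minus that of HCC827 was -1.46. With 1 array per line and condition this was not tested. It was looked for among the 8 adenosine genes and the 77 further genes as opposite signs with at least 1 change of 2-fold and all 4 arrays above the negative controls, and P2RY6 alone met this.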

How the results depend on the processing

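Each of the 8 genes had 1 probe set, so averaging probe sets changed nothing. The counts of the 8 genes changed at least 2-fold (1 in PC-9, 2 in HCC827 and 0 in H322) were the same with an offset of 16, median centring, quantile normalization and dim signals raised to the negative controls. That last setting moves the median of all genes by -0.35 in HCC827 and -0.34 in H322, as the level of the negative controls differs between arrays, and put ADORA2B in PC-9 at -2.41. Above the 90th percentile of the negative controls on all 6 arrays lay 6 of the 8 genes, and above the 99th 2, against 3. Without PC-9 the ADORA2B erlotinib difference was -1.94 and without HCC827 -3.04, which includes the dim signal; the NT5E one was -0.37 and -0.96. A test with 1 line left out was not run, as no residual degree of freedom remains. Limma passed 262 of all genes with 2540 at an unadjusted p under 0.05. It passed 166 with the offset of 16, 96 among the 10011 genes that exceeded background on 1 array or more, 636 with median centring, 954 after quantile normalization, 1115 with dim signals raised, 1 without the trend (2255 unadjusted) and 0 with no replicate block for the pairing by line (186 unadjusted). Of the 77 further genes it passed 2 with the offset of 16 and with the filter, 5 with median centring, 6 after quantile normalization, 7 with dim signals raised, and 0 without the trend (14 unadjusted) or with no replicate block (0 unadjusted). The cause was not tested. Signal over background limits ADORA1, ENTPD1 and ADA, ADORA2B in PC-9 with erlotinib, and SLC29A1 in H322, to bounds.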
